A study of Mus musculus with 6 samples.

Results

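The p200 family is a group of related interferon-inducible genes that lie side by side on mouse chromosome 1. The 6 members described here, Aim2, Mndal, Ifi203, Ifi204, Ifi205 and Ifi207, were found by gene name among the 54532 genes of an RNA sequencing table. That table covered 6 libraries of mouse aortic smooth muscle cells (MASMCs), the contractile cells of the vessel wall, in 2 groups of 3. One group had received an adenoviral vector with a control plasmid (Ad-Con), and the other a vector with an overexpression plasmid for pyruvate dehydrogenase kinase 4, a mitochondrial kinase that restrains pyruvate oxidation (Ad-PDK4). The cells of both groups were wild type and were, per the study, primary cells from the abdominal aorta that were treated with angiotensin II, a peptide hormone that the labels do not mention. All libraries therefore came from cells carrying an adenovirus, and untransduced cells or cells without angiotensin II were not analysed here. The comparison asks how PDK4 overexpression changes the expression of these genes.

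Most p200 proteins join a pyrin domain, through which proteins assemble, to a HIN domain, which binds DNA. AIM2 is the best known of them. It binds double-stranded DNA in the cytosol and recruits the adaptor ASC and caspase-1 into an inflammasome, which matures interleukin-1 beta and interleukin-18 and cleaves gasdermin D. The other members are mainly known as nuclear or cytosolic proteins of the interferon response, and p204, the product of Ifi204, is the mouse relative of human IFI16, a DNA sensor that acts through STING.

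The targeted gene was examined first as a check of the labels. Pdk4 stood at 9.50, 10.4 and 10.1 FPKM (fragments counted for a gene, scaled by its transcript length and by library depth) in Ad-Con and at 7.67, 7.40 and 7.38 FPKM in Ad-PDK4. It was thus lower, not higher, in the libraries labelled Ad-PDK4, by a log2 fold change of -0.42 (SE 0.06, adjusted p = 1.14e-03, limma). The study's methods give a primer pair for amplifying the PDK4 insert of a plasmid, and its primer list names the same pair as mouse PDK4. Whether the adenoviral vector carried that insert is not stated. Whether reads of the transgene are part of this gene's values was not tested. Every direction given below is between libraries as labelled. The number of assigned reads per library was 17588942 to 21861872. The study calls the libraries of a group biological replicates, while the labels do not say which cultures or animals they came from. The p-values measure the spread between these samples. Of 8 smooth muscle markers 3 were tested and 1 fell, where 20.8% of all tested genes fell. This was Acta2, with 76.9 to 78.7 FPKM in Ad-Con and 33.5 to 38.0 FPKM in Ad-PDK4. Smtn, at 8.20 to 8.43 FPKM and 8.13 to 8.95 FPKM, and Lmod1 did not pass (adjusted p = 0.839 and 0.357). Myh11, Tagln, Cnn1 and Des, which define contractile cells, stayed below 0.6 FPKM in every library. Among these, Cnn1 and Des were lower in every Ad-PDK4 library than in any Ad-Con library, while Myh11 and Tagln overlapped. Mylk, also too low to be tested, was at 0.5975 to 0.8495 FPKM in Ad-Con and at 0.09647 to 0.142 FPKM in Ad-PDK4.

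On the GRCm38 build used by the table, the members run from Aim2 at chr1:173350879-173466040 on the plus strand to Ifi205 at chr1:174011998-174031810 on the minus strand. Ifi207 (chr1:173723427-173741747), Ifi204 (chr1:173747293-173766943), Mndal (chr1:173849126-173942491) and Ifi203 (chr1:173920407-173942672) lie between them, each on the minus strand. All 6 are annotated as protein coding. The annotated bodies of Mndal and Ifi203 overlap on the same strand, but their exons share only 37 bases, 1.02% of the exonic bases of Mndal and 0.55% of those of Ifi203.

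The sequence before the start sites was searched because p200 genes are known as interferon targets. An interferon-stimulated response element (ISRE) was searched as the letters GAAANNGAAA on both strands of the 250 bases upstream of each RefSeq start site. These letters occurred in 2.98% of 32851 such windows over all genes. RefSeq upstream sequence was matched for 5 of the 6 members, Ifi204 being the member without one. A match was present in at least 1 window of 4 of these 5 genes, Ifi207, Mndal, Ifi203 and Ifi205. Mndal and Ifi203 have 2 windows each, from alternative start sites. Both Mndal windows lie inside its annotated body, whose minus-strand start is at chr1:173942491. The 30 bases around each match, 5′ to 3′ along the gene with the 10 matched letters in capitals, are shown to compare the members with Ifi211, a p200 gene of the same cluster.

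Ifi207: cctagccaggGAAATCGAAAattaagaaca
Mndal: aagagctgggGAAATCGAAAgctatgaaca
Ifi203: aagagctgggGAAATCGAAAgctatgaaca
Ifi205: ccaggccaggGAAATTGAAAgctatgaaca
Ifi211: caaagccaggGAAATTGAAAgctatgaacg

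The site of Ifi207 (chr1:173741831-173741860, GRCm38.p6, minus strand) put the matched letters at -41 to -32 from the start. For Mndal (chr1:173880204-173880233) they lay at -36 to -27 and for Ifi203 (chr1:173942508-173942537) at -35 to -26. The 30 bases printed for Mndal and Ifi203 are identical. In Ifi205 (chr1:174031870-174031899) the match lay at -134 to -125. One Mndal window held a further match, on the opposite strand, and 1 of the 2 Ifi203 windows held none. A match is a run of letters and no evidence of binding.

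The whole 250-base window of Ifi207 (chr1:173741810-173742059, minus strand), with the matched letters in capitals, shows where the site sits before the start.

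Ifi207 upstream: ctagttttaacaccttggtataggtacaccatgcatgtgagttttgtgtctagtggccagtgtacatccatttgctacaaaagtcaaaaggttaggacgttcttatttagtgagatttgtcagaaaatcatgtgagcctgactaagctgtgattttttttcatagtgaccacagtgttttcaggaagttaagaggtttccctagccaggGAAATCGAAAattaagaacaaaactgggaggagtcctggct

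Aim2 had no match in its window. That window lies inside the annotated body of Aim2, which begins at chr1:173350879, and the bases before that outer start were not searched. The stretch before the RefSeq start of Aim2 (chr1:173420354-173420570, plus strand, 217 bases, cut before the first annotated untranslated base) is printed for contrast.

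Aim2 upstream: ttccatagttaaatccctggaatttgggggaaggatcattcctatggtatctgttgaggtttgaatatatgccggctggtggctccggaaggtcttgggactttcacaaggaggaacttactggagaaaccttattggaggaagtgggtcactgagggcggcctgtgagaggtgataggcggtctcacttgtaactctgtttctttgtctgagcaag

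The letters TTCNNNGAA, the gamma-activated sequence, occurred in none of the member windows and in 7.02% of all windows. The letters GGGANNNNCC, an NF-kB type motif, occurred before Mndal and Ifi203 and in 17.6% of all windows.

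In the cells, 5 members rose under the Ad-PDK4 label, and the sixth, Aim2, went from almost no reads to a few. The 5 were Mndal, Ifi203, Ifi204, Ifi205 and Ifi207, whose ratios of mean FPKM lay between 11.6 for Ifi204 and 45.1 for Ifi205. Each passed limma's test on log2(FPKM + 0.1) at an adjusted p below 0.05 with a fold of at least 2. Over the 13423 genes with a mean of at least 0.5 FPKM, 3.95% passed in that direction with that fold, and 21.8% passed in that direction at any size. Ifi205 reached the 0.5 FPKM needed for testing only through its Ad-PDK4 values, so its passing is no independent result. Aim2 did not reach 0.5 FPKM. For each of the 6 members, every Ad-PDK4 library lay above every Ad-Con library, as it did for 27.8% of the tested genes.

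**Figure D1:**
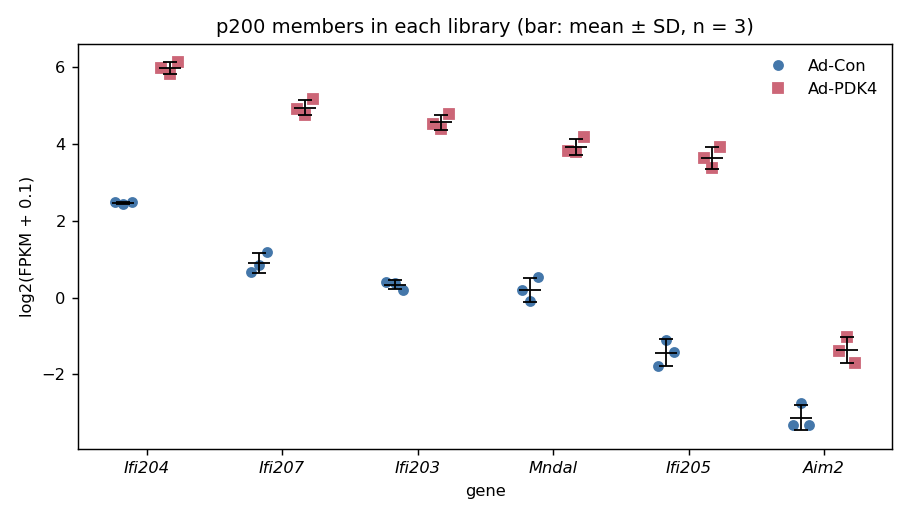
Each point is the level of a p200 member in a library, as log2(FPKM + 0.1), with circles for Ad-Con, squares for Ad-PDK4 and bars for the mean ± SD of 3 libraries. For all 6 genes the 3 squares lie above the 3 circles, and Ifi204 is the most abundant member in both groups.

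Ifi204, which encodes the DNA-binding protein p204, was the most abundant member. It was at 5.52, 5.34 and 5.51 FPKM in Ad-Con and at 63.0, 56.4 and 69.9 FPKM in Ad-PDK4. The means were 5.46 ± 0.101 and 63.1 ± 6.78 FPKM (SD, n = 3), and the Ad-Con libraries differed from each other by less than those of any other tested member relative to the mean. The log2 fold change was 3.50 (SE 0.08, 95% interval 3.32 to 3.69, adjusted p = 9.61e-08). By mean FPKM it ranked 7325 among all 54532 genes in Ad-Con and 809 in Ad-PDK4.

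Ifi207, a pyrin and HIN protein gene next to Ifi204, was at 1.48, 1.71 and 2.18 FPKM in Ad-Con. It reached 30.1, 27.2 and 35.9 FPKM in Ad-PDK4. The groups lay far apart, with means of 1.79 ± 0.355 and 31.1 ± 4.46 FPKM. Its log2 fold change was 4.05 (SE 0.15, 95% interval 3.69 to 4.41, adjusted p = 1.96e-06).

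Ifi203, an interferon-inducible member with a long transcript of 6706 exonic bases, was at 1.23, 1.21 and 1.05 FPKM in Ad-Con. In Ad-PDK4 it was at 23.0, 20.95 and 27.5 FPKM. The mean rose from 1.16 ± 0.0964 to 23.8 ± 3.37 FPKM, a ratio of 20.5. The log2 fold change was 4.24 (SE 0.11, 95% interval 3.98 to 4.50, adjusted p = 1.45e-07).

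Mndal, the mouse relative of the human myeloid cell nuclear differentiation antigen, was at 1.06, 0.832 and 1.34 FPKM in Ad-Con. It was at 14.0, 13.9 and 18.0 FPKM in Ad-PDK4. The means of 1.08 ± 0.254 and 15.3 ± 2.36 FPKM stood in a ratio of 14.2. The log2 fold change was 3.72 (SE 0.17, 95% interval 3.32 to 4.12, adjusted p = 3.73e-06).

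Ifi205, whose product p205 is known for its part in growth arrest and differentiation, was the lowest of the 5 in Ad-Con, at 0.188, 0.368 and 0.277 FPKM (16, 27 and 21 reads). In Ad-PDK4 it was at 12.2, 10.3 and 15.1 FPKM, with 931, 750 and 1395 reads. The means were 0.278 ± 0.0900 and 12.5 ± 2.44 FPKM. Its log2 fold change, 5.07 (SE 0.21, 95% interval 4.59 to 5.55, adjusted p = 1.39e-06), was the largest of the 5. That rank rested on the constant added before the logarithm. With 1 FPKM added in place of 0.1 the value was 3.39, below the 3.52 of Ifi207 and the 3.51 of Ifi203.

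Aim2, the inflammasome sensor, had 0, 3 and 0 reads in the Ad-Con libraries and 18, 24 and 16 reads in the Ad-PDK4 libraries. In FPKM these were 0, 0.0488 and 0 against 0.283, 0.392 and 0.207. All Ad-PDK4 libraries thus held more reads than any Ad-Con library, but within each group the level stayed below that of every other member. Against a floor of 3 reads in each Ad-Con library, the observed Ad-PDK4 mean of Aim2 was 6.38-fold higher, without allowance for counting error in Ad-PDK4. In a fit without the filter on low values, chosen once the data were known, it passed limma's test (adjusted p = 0.0113). The log2 fold change there was 1.76, and it ran from 0.35 to 4.29 with the added constant and the method, so its size is not determined at this depth. A two-sided exact permutation test over the 6 libraries gave p = 0.1, the smallest value that 3 against 3 can give.

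The members' own ranks among the 13423 log2 fold changes, counted from the highest, were 23 for Ifi205, 46 for Ifi203, 53 for Ifi207, 75 for Mndal and 91 for Ifi204. The median log2 fold change over all tested genes was -0.00309. Together the 6 members took 37.5 to 40.3 of every 1000000 assigned reads in Ad-Con and 526 to 693 in Ad-PDK4. Among the Ad-PDK4 libraries, replicate 3 was the highest for Mndal, Ifi203, Ifi204, Ifi205 and Ifi207 and the lowest for Aim2. It was the highest of the 3 for 55.3% of the 530 genes that passed as higher with a fold of at least 2. Without that library the same 5 members passed.

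**Figure D2:**
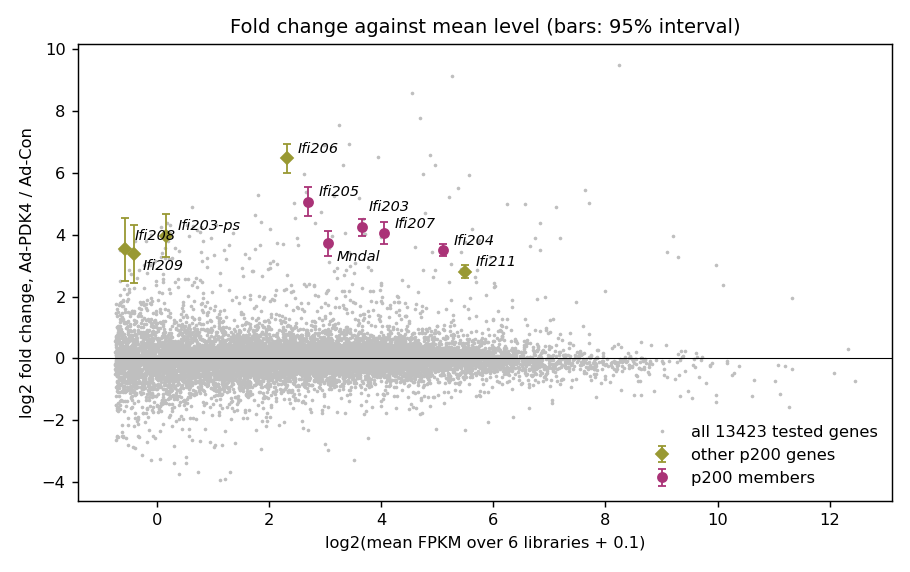
The log2 fold change of Ad-PDK4 over Ad-Con is plotted against the log2 mean FPKM over the 6 libraries, with all 13423 tested genes in grey, the 5 tested members as circles and the 5 other tested p200 genes as diamonds, both with 95% intervals. All 10 lie well above 0, between 2.80 for Ifi211 and 6.48 for Ifi206. However, Ifi205 and 4 of the 5 other p200 genes were tested only through their Ad-PDK4 values. The value of Ifi206, with at most 2 reads in an Ad-Con library, ran from 3.4 to 9.31 with the added constant and the method.

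The order of levels, compared per length in FPKM, was nearly the same in both groups. In Ad-Con it ran Ifi204, Ifi207, Ifi203, Mndal, Ifi205 and Aim2. Ifi203 and Mndal overlapped between libraries, with a ratio of means of 1.08, and all other neighbours in the order were apart. In Ad-PDK4 the order of the means was the same, but Ifi207 overlapped with Ifi203 (ratio 1.30) and Mndal with Ifi205 (ratio 1.22). Ifi204 remained apart from the next member in both groups, by a ratio of 3.05 in Ad-Con and 2.03 in Ad-PDK4.

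The share of each member in the members' summed FPKM was compared as well. Ifi204 gave 55.9 ± 2.52% of the members' summed FPKM in Ad-Con and 43.3 ± 1.17% in Ad-PDK4. Ifi205 gave 2.85 ± 0.953% and 8.53 ± 0.561%. The share of Ifi203 was 11.95 ± 1.55% and 16.3 ± 0.202%, and that of Ifi207 was 18.2 ± 2.70% and 21.2 ± 0.268%. For these 4 the groups did not overlap, and a two-sided exact permutation test gave p = 0.1 for each, the smallest possible. The share of Mndal was 10.9 ± 2.09% in Ad-Con and 10.5 ± 0.577% in Ad-PDK4 (exact permutation p = 0.7), with overlapping libraries. Aim2 made up 0.171 ± 0.296% and 0.209 ± 0.0902% (exact permutation p = 1). These shares are fractions of a sum, so they cannot move independently of each other.

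**Figure D3:**
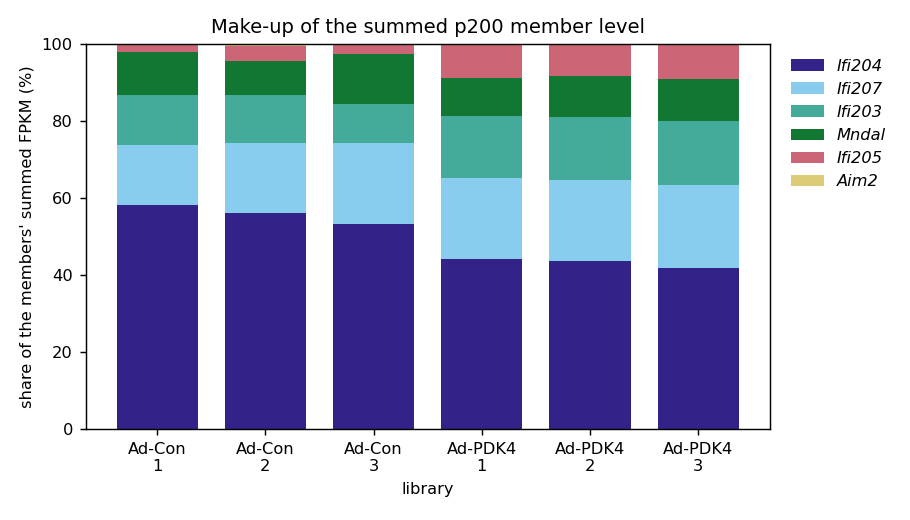
Stacked bars give the share of each member in the members' summed FPKM, in percent, for each of the 6 libraries. The Ifi204 block is 55.9% on average in Ad-Con and 43.3% in Ad-PDK4, the Ifi205 block is 2.85% and 8.53%, and the Aim2 block is too thin to see.

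Stretches shared between genes can limit how exactly reads are divided among them. The study's reads were paired and longer than the 50 bases compared here. The shares below are therefore not the shares of reads that could not be divided. Of all 50-base stretches in the annotated transcripts, Ifi204 shared 20.02% with another gene, Mndal 19.55%, Ifi205 18.6% and Ifi203 12.35%. Ifi207 shared 7.29% and Aim2 0.74%. The largest overlap of Ifi204, Mndal and Ifi205 was with Ifi211, at 14.8%, 7.96% and 18.5%, and that of Ifi203 was with the pseudogene Ifi203-ps, at 8.85%. Of the p200 genes that are no members, Ifi211 shared 72.8% of its stretches, Ifi209 33.75%, Ifi203-ps 26.3%, Ifi206 25.6%, Ifi208 20.9%, Ifi213 15.6% and Ifi214 14.6%. Their levels, given next, are therefore uncertain, and how far shared reads entered the values of the members was not tested. The strand setting of the counting is not given in the sources used here.

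The other p200 genes of the cluster were examined from a list of 12 names, 8 of which were in the table. Of these 8, 5 were tested and 5 passed as higher with a fold of at least 2, as did 3.95% of all tested genes. However, 4 of the 5 reached the filter only through Ad-PDK4. Being tested thus already required high Ad-PDK4 values, and the passing of these 4 is no independent result. Ifi211 was the exception and the most abundant gene of the whole cluster, at 10.7, 11.04 and 11.8 FPKM in Ad-Con and 73.1, 74.1 and 90.1 FPKM in Ad-PDK4. Its log2 fold change of 2.80 (SE 0.09, adjusted p = 3.35e-07) was smaller than that of each tested member. Ifi206 had 2, 0 and 0 reads in Ad-Con and 482, 492 and 769 reads in Ad-PDK4, which made it at least 185-fold higher.

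Further genes of the cluster were near 0 in Ad-Con. Against 3 reads per library, Ifi208 was at least 37.4-fold higher and Ifi203-ps at least 32.0-fold higher in Ad-PDK4. Ifi209, which reached the filter only through Ad-PDK4, had 4, 0 and 3 reads against 91, 67 and 105 (limma adjusted p = 3.85e-04). Ifi213, below the filter, was at least 27.2-fold higher. Ifi214 had 0 reads in each Ad-Con library and 3, 5 and 14 in Ad-PDK4, and it did not pass the fit without a filter (limma adjusted p = 0.12). Ifi202b was listed at 0 in all 6 libraries. ISRE letters were found before 5 of the 7 of these genes with a RefSeq window, Ifi206, Ifi208, Ifi211, Ifi213 and Ifi214, and not before Ifi209 or Ifi202b.

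**Figure D4:**
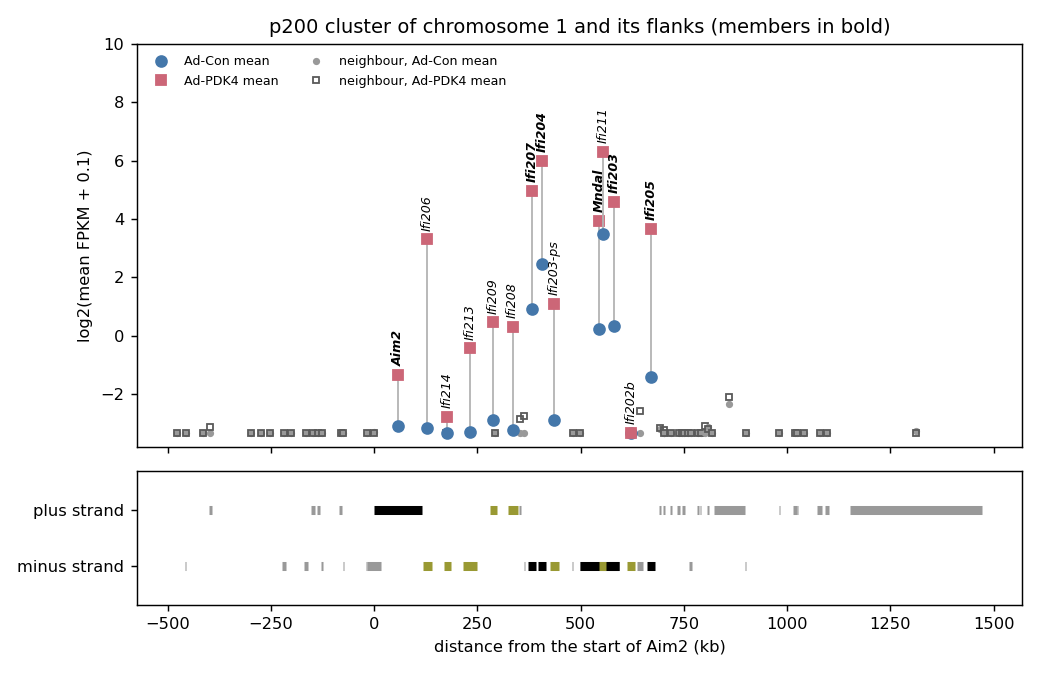
The upper panel gives the log2(mean FPKM + 0.1) of Ad-Con (circles) and Ad-PDK4 (squares) at the midpoint of each p200 gene, by distance in kb from the start of Aim2, with the 47 neighbouring genes in grey. The lower panel gives gene bodies by strand, black for the 6 members and olive for the other p200 genes. The Ad-PDK4 means lie above the Ad-Con means from Aim2 to Ifi205, except for Ifi202b at 0, and the grey genes stay near the floor in both groups.

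The genes around the cluster were nearly silent. Within 500 kb of the outermost members lay 47 genes that are not on the p200 lists, among them olfactory receptor genes. They include 3 gene models that share stretches with p200 genes, Gm18752 (9.8% of those of Ifi206), Gm18445 (2.6% of Ifi207) and Gm38050 (1.9% of Mndal). Only 11 of them had any read, and none reached the filter. In the fit without a filter, limma called 0 of the 11, and 0 had an unadjusted p below 0.05. Summed over the 47 genes, a library held at most 36 reads, so changes outside the cluster were not detectable at this depth.

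Partners of AIM2 in the inflammasome were taken from a list of 14 genes, 9 of which were tested. Of the 9, 4 rose, each with a fold of at least 2, 0 fell and 5 did not pass, beside 3.95% of all tested genes that rose with that fold and 20.8% that fell at any size. Zbp1, a sensor of Z-form nucleic acid that can join AIM2 in a cell death complex, rose from 0.710 ± 0.145 to 61.1 ± 4.70 FPKM (log2 fold change 6.25, adjusted p = 9.61e-08). Casp4, which encodes the caspase that senses lipopolysaccharide in the cytosol, rose from 1.65 ± 0.214 to 14.9 ± 1.53 FPKM (log2 fold change 3.10, adjusted p = 8.43e-07).

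Casp1, the protease of the AIM2 inflammasome, was at 0.558, 0.380 and 0.995 FPKM in Ad-Con and at 3.41, 3.13 and 4.11 FPKM in Ad-PDK4. It rose by a log2 fold change of 2.37 (adjusted p = 5.00e-04). Gsdmd, whose product forms the membrane pore of pyroptosis, rose from 8.34 ± 0.401 to 25.8 ± 1.26 FPKM (log2 fold change 1.62, adjusted p = 9.66e-07). The adaptor and a cytokine of the complex were hardly detected. Pycard, which encodes ASC, had 4, 0 and 8 reads in Ad-Con and 10, 7 and 9 in Ad-PDK4, and Il1b was listed at 0 in every library. Ripk1, a kinase of cell death signalling, did not pass (log2 fold change 0.19, adjusted p = 0.0622) but did in 3 of 16 alternatives. Nlrp3, the sensor of another inflammasome, had at most 4 reads.

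Il18, the other cytokine matured by caspase-1, was at 3.72, 2.26 and 5.24 FPKM in Ad-Con and at 1.12, 2.55 and 1.89 FPKM in Ad-PDK4. The groups overlapped, and it did not pass (log2 fold change -0.97, adjusted p = 0.0986). It passed as lower with limma-voom on the recovered reads (adjusted p = 0.0207) and without Ad-Con replicate 2 (adjusted p = 0.0354). Ripk3, a kinase of necroptosis, had a log2 fold change of -0.13 (adjusted p = 0.247) and passed as lower without Ad-PDK4 replicate 2 (adjusted p = 0.0393).

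Of 9 genes of cytosolic DNA sensing through STING, beside which p204 is known to act, 8 were tested, 5 rose, 0 fell and 3 did not pass, where 21.8% of all tested genes rose. Only Samhd1, which encodes an enzyme that limits DNA building blocks, changed by a fold of at least 2, from 6.83 ± 0.0228 to 24.8 ± 1.44 FPKM (log2 fold change 1.84, adjusted p = 3.77e-07). Tmem173, which encodes STING itself, was at 16.5 ± 1.73 and 25.0 ± 1.36 FPKM (log2 fold change 0.60, adjusted p = 8.46e-04). Ikbke, a kinase of the pathway, rose by a log2 fold change of 0.69 (adjusted p = 1.70e-04). Mb21d1, which encodes the DNA sensor cGAS, did not pass, with 0.964 ± 0.182 and 1.24 ± 0.0932 FPKM and overlapping libraries (log2 fold change 0.34, adjusted p = 0.157). Over these 8 genes the median log2 fold change was 0.36.

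Of 17 genes for interferons, their receptors, Janus kinases and the transcription factors that control p200 genes, 14 were tested, 10 rose, 0 fell and 4 did not pass. Of the 10, 6 reached a fold of at least 2, and over all tested genes 21.8% rose and 3.95% rose with that fold. Irf7, a factor that amplifies type I interferon expression, was at 4.79, 6.003 and 6.28 FPKM in Ad-Con and at 183, 197 and 173 FPKM in Ad-PDK4. Its log2 fold change of 5.00 (adjusted p = 8.47e-08) was close to that of Ifi205. Stat2 and Irf9, which encode subunits of a complex that binds the ISRE, rose as well. Stat2 rose by a log2 fold change of 2.62 (adjusted p = 9.61e-08) and Irf9 by 1.58 (adjusted p = 6.71e-07). Ifnb1, the interferon beta gene, was listed at 0 in the 3 Ad-Con libraries. In Ad-PDK4 it was at 0.513, 0.381 and 0.302 FPKM, only 7, 5 and 5 reads and below the filter. Ifng was listed at 0 throughout. The median over the 14 genes was 0.61.

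Proteins known to bind p204 were represented by 11 genes, of which 10 were tested. Of the 10, 1 rose, 2 fell and 7 did not pass, where 21.8% of all tested genes rose and 20.8% fell. Neither count thus exceeded its share over all tested genes. Id3 and Id1, inhibitors of basic helix-loop-helix factors that p204 is known to bind, were the genes that fell. Id3 went from 44.8 ± 1.32 to 19.8 ± 1.86 FPKM (log2 fold change -1.17, adjusted p = 1.27e-05). Id1 went from 21.1 ± 0.616 to 13.1 ± 0.757 FPKM (log2 fold change -0.69, adjusted p = 8.10e-05). Id2, at a log2 fold change of -0.49, missed the threshold (adjusted p = 0.0514), and it passed in 6 of its 16 alternatives. Hras rose by 0.35 on the log2 scale (adjusted p = 8.29e-03). The median over the 10 genes was -0.12.

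The genes whose values over the 6 libraries lay nearest to those of each tested member, were named by the distance between centred log2 values. For Ifi204 they were Ly6e (distance 0.197), Oas1b (0.259) and Gm4070 (0.284). Mndal was nearest to Gvin1 (0.274), Slfn2 (0.377) and Dhx58 (0.405). For Ifi207 they were Oasl2 (0.274), Dhx58 (0.322) and Ddx60 (0.336). Ifi203 was nearest to Gbp10 (0.293), Ccl7 (0.408) and Phf11a (0.437), and Ifi205 to BC023105 (0.270), Gbp6 (0.305) and Ifit1 (0.436). With 2 groups of 3 libraries, the distance is small wherever 2 genes have a like log2 fold change and like spread. These log2 values include the added constant, which shrinks the fold of genes near 0 in Ad-Con. Gbp10 had means of 0.00423 FPKM in Ad-Con and 1.895 FPKM in Ad-PDK4, and Phf11a 0.0140 and 2.14 FPKM. Their nearness to Ifi203 therefore depends on that constant and does not mean an equal ratio of FPKM. Ccl7, at 10.3 and 219 FPKM, was not near 0.

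Macrophages and other leukocytes are known to express p200 genes at a high level, so their markers were read beside the members. In bulk libraries, fewer cells of a type and less RNA per cell cannot be told apart. Of 11 macrophage markers, 6 were listed at 0 in every library, among them Ptprc, Tyrobp, Itgam and the 3 C1q genes. The summed macrophage markers were at 15.0 to 17.9 FPKM in Ad-Con and at 5.93 to 7.45 FPKM in Ad-PDK4, most of it from Cd68, which fell (log2 fold change -1.74, adjusted p = 4.39e-04). Lyz2, a lysozyme gene, was at 1.30 to 1.68 FPKM in Ad-Con and at 1.74 to 2.24 FPKM in Ad-PDK4 and did not pass (adjusted p = 0.0791). Csf1r, the receptor of macrophage growth factor, was at 0.111 to 0.395 FPKM in Ad-Con and at 0.565 to 0.725 FPKM in Ad-PDK4.

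Markers of the remaining leukocytes were absent or low. Of 5 T and B cell markers 4 were listed at 0, and of 4 dendritic cell markers Flt3 and Itgax were. The 4 dendritic cell markers summed to 0.820 to 1.14 FPKM in Ad-Con and 0.549 to 0.617 FPKM in Ad-PDK4. The 5 endothelial markers summed to 0.617 to 0.798 FPKM and 0.885 to 1.18 FPKM. The 4 fibroblast markers, which cultured smooth muscle cells also express, summed to 1119 to 1201 FPKM and 589 to 657 FPKM, most of it from Col1a1, which fell (1007 to 1086 FPKM in Ad-Con, 403.5 to 492 FPKM in Ad-PDK4). Of these 4, Lum also fell, Pdgfra did not pass (log2 fold change -0.05) and Dcn rose, with 83.3 to 99.2 FPKM in Ad-Con and 143 to 181 FPKM in Ad-PDK4 (log2 fold change 0.83, adjusted p = 4.03e-04). The part of these cell types in the members' values was not tested.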

How the data were processed

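RNA from 3 Ad-Con and 3 Ad-PDK4 libraries was sequenced, with groups taken from the treatment labels. The authors deposited FPKM per gene and library, with gene lengths and without pooling of replicates. The submitters' processing notes name CASAVA 1.8, fastp, HISAT2 2.0.5, featureCounts 1.5.0-p3 and DESeq2 1.20.0. They name the build GRCm39, but 98.3% of the 54495 gene identifiers found in GENCODE release 21 had the same coordinates on GRCm38, which is used here. The labels name a SMARTER kit and the methods a NEBNext Ultra kit. FPKM times gene length gave whole reads for 100% of the values (tolerance 0.01 reads).

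After adding 0.1, FPKM were log2 transformed and the groups compared in limma 3.58.1 (R 4.3.3; trend and robust moderation, no covariate). P-values were adjusted by Benjamini-Hochberg over 13423 genes with a mean of at least 0.5 FPKM. Every adjusted p is from limma. A group with at most 3 reads in each library was taken as at the floor. Folds against it divide the observed Ad-PDK4 mean by the level of 3 reads. They are lower bounds for the observed values, and counting error and spread in Ad-PDK4 are not covered. The script was tested on simulated data. The alternatives were other pseudocounts, filters, scalings and moderation, the replicate block, limma-voom on the recovered reads, and leaving out each library.

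The members and lists were chosen with earlier results of these data known. Named genes were all members, the p200 genes with reads, the 3 largest rises and falls of each list, fixed pathway genes (some results under the rule are not reported here), the 3 nearest genes of each tested member and Pdk4. Ifnb1, Ifng, Ifi202b, Ripk1, Gm18752, Gm18445, Gm38050 and the cell type markers are outside that rule and were picked once their values were known. Pyhin1 and Pydc3 are RefSeq synonyms of Ifi209 and Ifi208. Upstream sequences are from RefSeq on GRCm38.p6.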

Additional observations from a re-analysis of the deposited data

How the results depend on the processing

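Each of the 5 tested members passed as higher in 16 of 16 alternatives, but Ifi205 was tested only through its Ad-PDK4 values except in the fit without a filter. The log2 fold changes of the 5 members ran from 2.97 to 3.88 for Mndal, 3.51 to 4.35 for Ifi203, 3.31 to 3.58 for Ifi204, 3.39 to 5.53 for Ifi205 and 3.52 to 4.19 for Ifi207. The low end of each came from a pseudocount of 1, by construction of the log scale. Aim2 passed the fit without a filter in 14 of 14 alternatives chosen after the data were known (largest adjusted p = 0.043). Of the other p200 genes, 1 in place of 5 passed with a minimum mean of 5 FPKM, since fewer were tested. Among the inflammasome partners, the number that fell was 1 with limma-voom and 0 to 1 when single libraries were left out, and 5 in place of 4 rose with TPM scaling, limma-voom or without Ad-PDK4 replicate 2. Of the partners of p204, 2 rose without trend and robust moderation or with limma-voom, and 4 fell with quantile normalization. The cause was not tested for these. Small changes that did not pass turned direction. Irf3 was at -0.05 and Ifnar1 at -0.03 after quantile normalization. Leaving out single libraries gave -0.03 to 0.05 for Irf3 and -0.01 to 0.11 for Ifngr2. No scaling moved the median of all genes by more than 0.0403. Scaling by the median of ratios between libraries moved it by 6.47e-08. The deposited FPKM already carried that scaling, so this alternative could not differ and adds no check to the counts above.

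Whether the replicate numbers pair the samples is not given in the labels. Same-numbered libraries had correlations of -0.046, -0.031 and -0.0013 between their deviations from the group means. These values show no likeness by number, but they cannot settle how the cultures were set up. With the replicate number as a block, 5 members passed as higher, as without it. With the block, the interferon regulators that rose numbered 11 in place of 10 (Tyk2 was added), and 3 in place of 2 partners of p204 fell (Id2 was added). At this depth, the 0 to 3 reads of Aim2 in Ad-Con leave the size of its fold undetermined.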
